A study of Mus musculus with 13 samples.

Results

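Molecular chaperones of the heat-shock families were followed in CD4 single-positive (CD4SP) thymocytes with and without cathepsin L (CTSL) in the thymic epithelium, before and after stimulation. The group holds the protein-coding genes of the Hspa, Hsp90, Dnaja, Dnajb, Dnajc, Cct and Bag numbered families plus Tcp1, Hsph1, Hspd1, Hspe1, Hspb1 and Hsf1. They were taken by gene symbol alone, which gave 82 of 35906 genes with a transcript in the files. The rule itself uses no measured value, but these families were taken up with earlier results of the data known.

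Each of the 13 libraries came from 1 mouse of the C57BL/6J background that was Rag1-/- and carried the Lm54 TCR transgene, so that T cells bear 1 receptor, specific for a peptide of listeriolysin O (LLO) on the MHC class II molecule I-Ab. The cells were sorted M2 CD4SP thymocytes, the most mature stage, which is CD69- and MHCI+. Control mice are labelled Ctsl fl/fl (WT), and in CtslΔTEC mice the floxed allele is deleted in thymic epithelial cells by a Foxn1-cre transgene, so the thymocytes sequenced here are not the cells in which the gene is removed. Unstimulated cells came from 4 WT mice (numbers 1 to 4) and 5 CtslΔTEC mice (1 to 5), and cells stimulated for 4 h with plate-bound LLO:I-Ab monomer at 1 µg/ml and soluble anti-CD28 at 250 ng/ml from 2 WT mice (5 and 6) and 2 CtslΔTEC mice (6 and 7). Phenotypic analyses of this study used mice of adult age, and the age of each mouse sequenced is not given in the sources used here. The labels name no culture step for the unstimulated cells, which went from the sort into an RNA preservative, and the file names of the stimulated libraries show a later date than all others, so stimulation, culture and date cannot be told apart.

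Chaperones bind proteins that are not yet folded or have lost their fold. HSP70 proteins hold short hydrophobic stretches in cycles of ATP, J-domain proteins (the DNAJ families) deliver clients and trigger the hydrolysis of ATP, and HSP110 and BAG proteins exchange the nucleotide and so release the client. HSP90 acts later on proteins close to their final form, many kinases among them. TRiC, also called CCT, is a closed chamber of paired rings with 1 copy of each subunit per ring, in which actin and tubulin fold. HSF1 is the factor that raises the genes of the heat-shock response, and T cells that leave rest make far more protein, which all has to be folded.

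The libraries held 8085463 to 39127833 estimated counts, the fewest in stimulated WT mouse 5. Markers of the T lineage were above 1 TPM (a length-corrected share of all transcripts) in 10 of 10 genes in every group, and 8 markers of thymic epithelium summed to 15.8 to 32.0 TPM in unstimulated and 17.2 to 20.6 TPM in stimulated libraries. Of these 8, Foxn1, Aire, Psmb11, Krt5 and Krt8 were at or below 1 TPM on average in each group, whereas Ly75 lay at 6.75 to 25.7 TPM, Epcam at 1.10 to 10.5 TPM and Prss16 at 0.180 to 5.88 TPM. The sum of 9 markers of double-positive and CD8-lineage thymocytes was 83.0 to 111 TPM in unstimulated WT and 239 to 303 TPM in unstimulated CtslΔTEC mice, led by Cd8b1, with Ptcra and Rag2 at or below 1 TPM on average in both and at most 1.31 and 1.12 TPM in a single library. Among the unstimulated mice, 5 of 5 CtslΔTEC and 1 of 4 WT expressed Y-linked genes, and 1 of 4 WT and 2 of 5 CtslΔTEC libraries carry an earlier date than the rest. The sum of 8 activation markers was 154 to 301 TPM before stimulation, and after it 7270 and 9890 TPM in WT, the lower in mouse 5, and 10500 and 10800 TPM in CtslΔTEC mice. Of the 8, Il2 and Irf4 went the other way between the stimulated genotypes. Of the erythroid markers, the haemoglobin gene Hba-a1 was at 51.5 to 125 TPM in the 3 unstimulated libraries of the earlier date, 24.9 to 45.9 TPM in the other 6 and 0 to 8.53 TPM after stimulation, and Alas2 was at or below 1 TPM on average in each group.

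Of the 82 genes, 73 passed the filter on low counts in the unstimulated comparison and 74 in the model of 13 libraries. Dnajb3 passed in the second model alone. The 8 that passed in neither did not exceed 3 counts in a library, and were Hspb1, Hspa1l, Cct8l1, Dnajb7, Dnajb8, Dnajc5b, Dnajc5g and Dnajc22. Hspb1, the founding small heat-shock protein, had counts in 1 library alone, unstimulated WT mouse 1, at 0.123 TPM. Together the members took 0.501% to 0.674% of all TPM in the 9 unstimulated libraries and 1.07% to 1.12% in the 4 stimulated ones, so the ranges did not overlap.

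A heat-shock element, the site bound by HSF1, is built of inverted repeats of the letters GAA, and the promoter of a gene of the unfolded protein response often holds an ER stress element. RefSeq promoter windows (GRCm38.p6, 250 bases before to 50 after the start) were at hand for 66 of the 82 genes. Hsp90aa1, Hsp90ab1, Hspa8, Hspa9, Hsf1 and Cct4 were among those without one, so their promoters were not searched. A pair of inverted units (TTCNNGAA or GAANNTTC, which read the same on both strands) lay in 18 of the 66 windows, or 27.3%, beside 17.0% of all 27025 genes. A run of 3 alternating units, which contains such pairs, lay in 4 windows (Hspd1, Hspe1, Hsph1 and Dnajb6), or 6.06% beside 0.662% of all genes. The ER stress element (CCAAT, 9 bases, CCACG, either strand) lay in 3 (Hspa5, Hsp90b1 and Dnajc3), or 4.55% beside 0.137%. The E-box CACGTG, a site of Myc and related factors, lay in 6, or 9.09% beside 8.09%. A match describes the letters of the window only.

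The stretches below let the motifs be read beside the transcript levels given further on, and run 5′ to 3′ on the strand of the gene, with the matched motif in capitals. They are limited to matches before the RefSeq start site, although those of Hspd1, Hsph1, Dnaja1, Dnajb6 and Hspa5 overlap an exon of another annotated transcript of the same gene in GENCODE, and, for heat-shock pairs and runs, cover 12 of the 15 members that hold one and were tested. In Bag3 and Cct6a the pair lies past the start, and the pairs of Dnaja4 lie far apart. The run of Hsph1 also lies past the start, so the pair before it is shown. Hspd1 and Hspe1 are read away from each other from starts 216 bases apart on chromosome 1 and share the same stretch, which is shown on the strand of Hspe1. Those of Hspa1a and Hspa1b, near-identical neighbours on chromosome 17, are the same over the bases shown. The capitals are heat-shock pairs or runs in the stretches down to that of Dnajc27 and ER stress elements in the last 3.
Hspe1 and Hspd1 (chr1:55088054-55088081, + strand): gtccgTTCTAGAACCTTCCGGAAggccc
Hspa1a (chr17:34972248-34972265, - strand): tgctgGAAGATTCctggc
Hspa1b (chr17:34959330-34959347, - strand): tgctgGAAGATTCctggc
Hsph1 (chr5:149636357-149636374, - strand): aatctTTCTCGAAggctc
Dnaja1 (chr4:40722339-40722356, + strand): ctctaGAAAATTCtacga
Dnajb4 (chr3:152193847-152193864, - strand): cgctgTTCTAGAAagtac
Dnajb6 (chr5:29735847-29735869, + strand): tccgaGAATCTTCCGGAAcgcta
Cct2 (chr10:117063405-117063422, - strand): gtgaaGAAGTTTCtagca
Cct5 (chr15:31601868-31601885, - strand): gccgaTTCCAGAAgctac
Dnajc10 (chr2:80315279-80315296, + strand): tttatTTCTAGAAaactt
Dnajc27 (chr12:4082356-4082373, + strand): tcggtGAAGATTCcagga
Hspa5 (chr2:34772020-34772048, + strand): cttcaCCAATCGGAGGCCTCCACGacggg
Dnajc3 (chr14:118937822-118937850, + strand): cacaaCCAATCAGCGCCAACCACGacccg
Hsp90b1 (chr10:86705528-86705661, - strand): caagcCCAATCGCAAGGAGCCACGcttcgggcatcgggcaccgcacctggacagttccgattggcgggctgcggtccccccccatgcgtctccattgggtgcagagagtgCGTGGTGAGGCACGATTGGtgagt

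Stimulated cells were compared with unstimulated cells of the same genotype. In WT cells 40 of the 74 members tested were higher and 14 lower after stimulation at an adjusted p under 0.1 (edgeR), against 67.7% of all genes called in that comparison (32.9% higher and 34.8% lower). In CtslΔTEC cells 41 were higher and 14 lower, against 71.2% of all genes called (32.9% higher and 38.2% lower). The share of members called in either direction, 73% and 74.3%, was near the background, and the share that was higher was 54.1% and 55.4%. The median log2 fold change was 0.46 in WT and 0.42 in CtslΔTEC cells, beside 0.01 and -0.06 over all genes tested. Between genotypes, 38 members were higher in both, 10 were lower in both and 1, Dnajc12, went in opposite directions. Hspa12a, with no count in both stimulated CtslΔTEC libraries, has no usable fold change there, and its place below the median is the same at any bound.

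**Figure D1:**
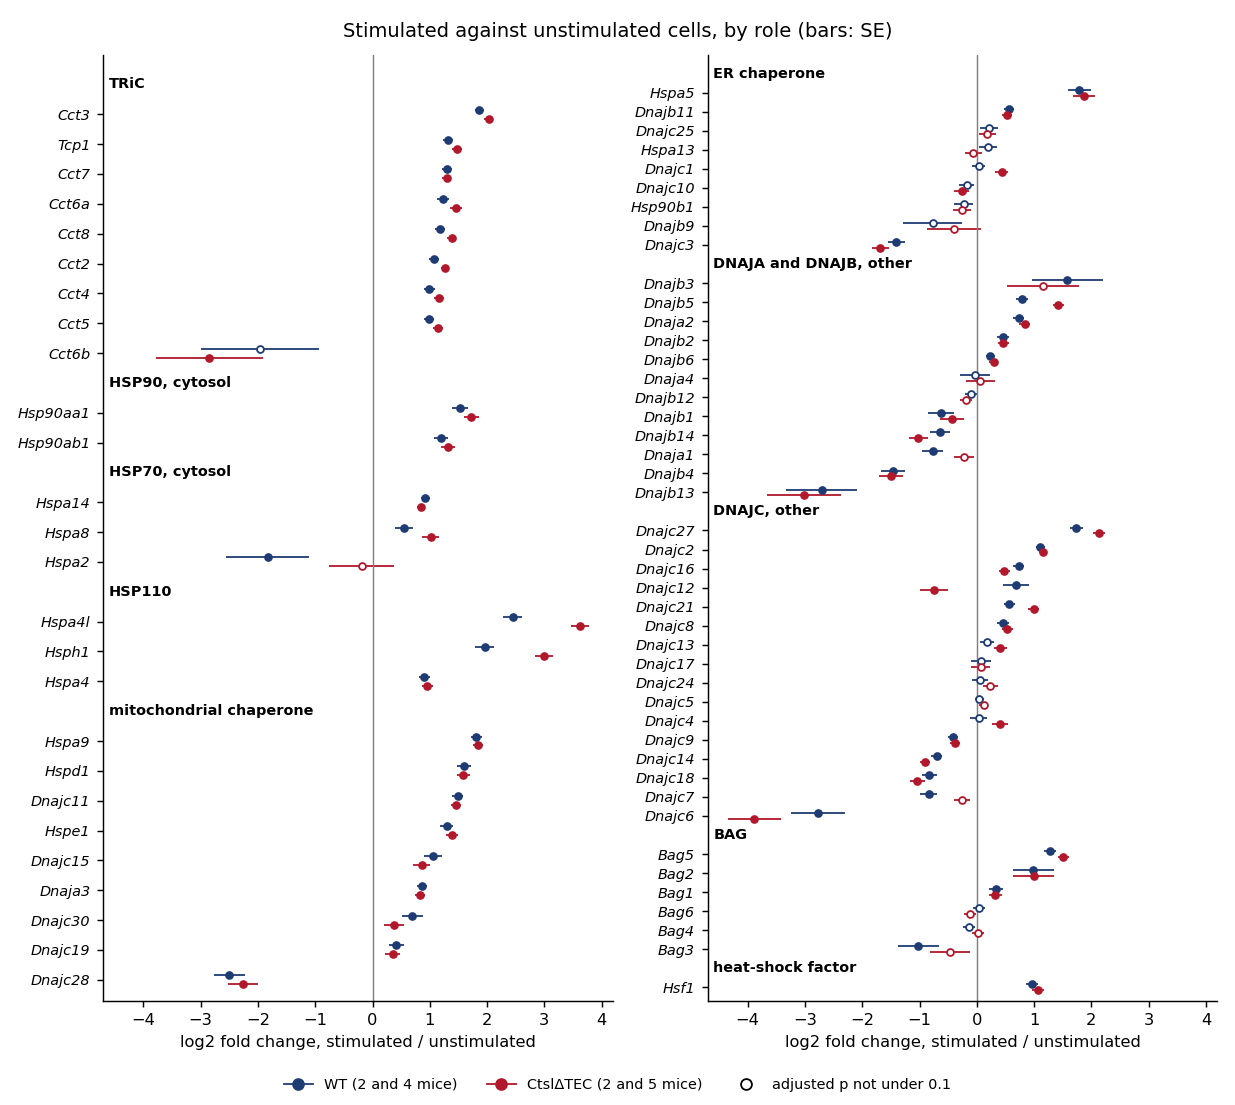
Log2 fold change of stimulated over unstimulated cells for the members tested, by role, in WT (blue, 2 and 4 mice) and CtslΔTEC (red, 2 and 5 mice) cells. Bars are SE, open points did not pass an adjusted p under 0.1, and Hspa1a, Hspa1b and the atypical Hspa12a and Hspa12b are left out. The 8 main TRiC subunits and the 2 cytosolic HSP90 genes sit right of 0 in both genotypes, the ER form Hsp90b1 sits left of 0 without passing, and the J-domain families spread to both sides of it.

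The 8 subunits of the TRiC chamber rose together. Tcp1 was measured at 159, 134, 146 and 152 TPM in WT and 130.5, 125, 145, 150 and 131 TPM in CtslΔTEC mice before stimulation. Stimulated WT mice had 318 and 337 TPM and stimulated CtslΔTEC mice 376 and 350.2 TPM. Before stimulation Cct2 was at 251, 249, 250.2 and 262 TPM in WT and 228, 230.2, 270.5, 249.9 and 228 TPM in CtslΔTEC mice. For Cct2 the stimulated values were 493 and 509 TPM in WT and 556 and 544 TPM in CtslΔTEC mice. In both subunits every stimulated mouse was above every unstimulated mouse. Cct3 stood at 117, 123, 121 and 139.7 TPM in unstimulated WT and 119, 110.2, 119, 118 and 109 TPM in unstimulated CtslΔTEC mice. Levels of Cct3 in stimulated cells were 438 and 431 TPM in WT and 433 and 439.8 TPM in CtslΔTEC mice. Cct4 was measured at 144, 158, 126 and 137 TPM in WT and 131, 149, 152, 139.6 and 137 TPM in CtslΔTEC mice before stimulation. In stimulated cells Cct4 was at 268 and 312 TPM (WT) and 320.4 and 333 TPM (CtslΔTEC). Cct3 made the widest step of the 8 and changed place, from the lower end of the order before stimulation to the top 3 after it. Before stimulation Cct5 was at 229, 238, 223 and 225 TPM in WT and 193, 205, 207, 206 and 201 TPM in CtslΔTEC mice. After stimulation it was at 465 and 437 TPM in WT and 420.3 and 451 TPM in CtslΔTEC mice. Cct6a stood at 119.8, 116, 118 and 114 TPM in unstimulated WT and 87.1, 90.5, 105, 103 and 90.1 TPM in unstimulated CtslΔTEC mice. Stimulated WT mice had 271 and 240.4 TPM and stimulated CtslΔTEC mice 243 and 249 TPM. Cct7 was measured at 127, 123, 118 and 125 TPM in WT and 121, 115, 133, 128 and 121 TPM in CtslΔTEC mice before stimulation. For Cct7 the stimulated values were 297 and 265 TPM in WT and 277 and 271 TPM in CtslΔTEC mice. The groups before and after stimulation did not overlap for these 3 subunits either. Before stimulation Cct8 was at 169.7, 171, 156 and 169.9 TPM in WT and 147, 151, 170.4, 162 and 146 TPM in CtslΔTEC mice. Levels of Cct8 in stimulated cells were 352 and 365 TPM in WT and 376 and 386 TPM in CtslΔTEC mice. The mean of the 8 subunits was 157 to 166 TPM in unstimulated WT, 145 to 163 TPM in unstimulated CtslΔTEC, 362 to 363 TPM in stimulated WT and 375 to 378 TPM in stimulated CtslΔTEC mice.

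In WT cells the log2 fold changes of the 8 subunits ran from 0.99 ± 0.09 (SE, edgeR adjusted p = 1.5e-07) for Cct5 to 1.86 ± 0.08 (SE, edgeR adjusted p = 5.7e-11) for Cct3. In CtslΔTEC cells they ran from 1.15 ± 0.08 (SE, edgeR adjusted p = 1.2e-08) for Cct5 to 2.03 ± 0.07 (SE, edgeR adjusted p = 8.1e-12) for Cct3. The other 6 passed the test in both genotypes, with log2 fold changes of 0.99 to 1.32 in WT and 1.16 to 1.48 in CtslΔTEC cells. The level per length of the subunit at the top exceeded that at the bottom by 2.13 to 2.62 times in unstimulated and by 1.84 to 2.29 times in stimulated libraries. Cct2 was the most abundant subunit transcript and Cct6a the least in each of the 4 groups by mean. Neighbours in the order, such as Cct7 and Cct3 in unstimulated WT mice at 123 ± 4.03 and 125 ± 9.86 TPM (SD, n = 4), often lay within their spread. The testis-type subunit Cct6b stayed between 0 and 0.781 TPM in the 13 libraries.

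**Figure D2:**
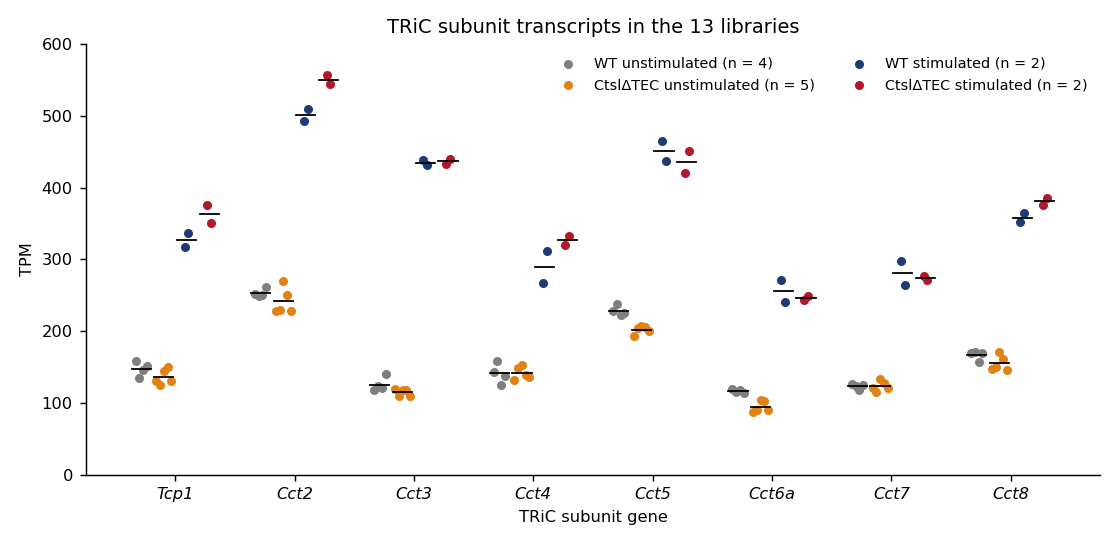
TPM of the 8 main TRiC subunit genes in each library, by group, with the group mean as a line. Stimulated libraries of both genotypes lie above the unstimulated ones for each subunit, and Cct3 moves from among the lowest to among the highest.

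The cytosolic HSP90 genes rose as well. Hsp90aa1 stood at 245, 176, 168 and 231 TPM in unstimulated WT and 244, 134, 258, 184 and 166 TPM in unstimulated CtslΔTEC mice. In stimulated cells Hsp90aa1 was at 510.4 and 444 TPM (WT) and 579.5 and 524 TPM (CtslΔTEC). Hsp90ab1 was measured at 888, 772, 699 and 906 TPM in WT and 835, 556, 909, 628 and 681 TPM in CtslΔTEC mice before stimulation. After stimulation it was at 1776 and 1667 TPM in WT and 1642 and 1537 TPM in CtslΔTEC mice. Hsp90aa1 is the inducible and Hsp90ab1 the constitutive form, and stimulated mice were above unstimulated mice for both. The change in Hsp90aa1 was a log2 fold change of 1.53 ± 0.14 (SE, edgeR adjusted p = 1.3e-07) in WT and a log2 fold change of 1.73 ± 0.13 (SE, edgeR adjusted p = 1.3e-08) in CtslΔTEC cells. For Hsp90ab1 it was a log2 fold change of 1.20 ± 0.13 (SE, edgeR adjusted p = 8.2e-07) and a log2 fold change of 1.32 ± 0.12 (SE, edgeR adjusted p = 1.3e-07). The level of Hsp90ab1 was 3.42 to 4.40 times that of Hsp90aa1 before stimulation and 2.83 to 3.75 times after it.

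Among the cytosolic HSP70 genes the constitutive Hspa8 rose and the inducible pair did not. Before stimulation Hspa8 was at 992, 867, 687 and 875 TPM in WT and 579, 426, 753, 607 and 553 TPM in CtslΔTEC mice. Stimulated WT mice had 1236 and 1077 TPM and stimulated CtslΔTEC mice 1055 and 1095 TPM. Its change was a log2 fold change of 0.55 ± 0.16 (SE, edgeR adjusted p = 0.00599) in WT and a log2 fold change of 1.02 ± 0.15 (SE, edgeR adjusted p = 1.9e-05) in CtslΔTEC cells. Without stimulated WT mouse 5 the WT value was 0.35 with an adjusted p of 0.136 (edgeR), and the groups of WT mice remained apart in TPM. Hspa1a stood at 15.5, 1.04, 0.0179 and 0.409 TPM in unstimulated WT and 0.0743, 0, 0.759, 0 and 0.0232 TPM in unstimulated CtslΔTEC mice. For Hspa1a the stimulated values were 0.512 and 0.3197 TPM in WT and 0.348 and 0.130 TPM in CtslΔTEC mice. Hspa1b was measured at 48.5, 4.303, 0.0955 and 1.14 TPM in WT and 1.202, 0.262, 6.73, 0.142 and 0.0525 TPM in CtslΔTEC mice before stimulation. Levels of Hspa1b in stimulated cells were 0.973 and 0.483 TPM in WT and 0.0934 and 0.335 TPM in CtslΔTEC mice. The heat-inducible pair, which heat shock raises steeply in most cells, was at or below 1 TPM in the 4 stimulated libraries and was highest in unstimulated WT mouse 1. Reads of the near-identical pair may be split between them by the authors' quantification, so each single value is uncertain. Hspa14, which works with ribosomes, changed by a log2 fold change of 0.92 ± 0.08 (SE, edgeR adjusted p = 5.7e-08) in WT and a log2 fold change of 0.85 ± 0.07 (SE, edgeR adjusted p = 7.0e-08) in CtslΔTEC cells, and Hspa2, mainly known from the testis, stayed under 1 TPM and was lower in WT cells, at a log2 fold change of -1.83 ± 0.73 (SE, edgeR adjusted p = 0.0393).

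Of the 3 HSP110 genes, the nucleotide exchange factors of HSP70, Hspa4l and Hsph1 held the steepest rises of the members tested in both genotypes, and Hspa4 rose less. Before stimulation Hspa4l was at 18.4, 15.3, 15.9 and 13.6 TPM in WT and 11.4, 13.3, 14.7, 17.5 and 12.7 TPM in CtslΔTEC mice. In stimulated cells Hspa4l was at 51.4 and 102 TPM (WT) and 166 and 137 TPM (CtslΔTEC). Hspa4l changed by a log2 fold change of 2.44 ± 0.16 (SE, edgeR adjusted p = 4.5e-09) in WT and a log2 fold change of 3.62 ± 0.15 (SE, edgeR adjusted p = 2.6e-11) in CtslΔTEC cells. Hsph1 stood at 55.5, 39.3, 43.2 and 38.01 TPM in unstimulated WT and 23.8, 24.9, 33.5, 31.6 and 29.7 TPM in unstimulated CtslΔTEC mice. After stimulation it was at 139.9 and 226 TPM in WT and 217 and 242 TPM in CtslΔTEC mice. Hsph1 changed by a log2 fold change of 1.96 ± 0.16 (SE, edgeR adjusted p = 6.9e-08) in WT and a log2 fold change of 2.99 ± 0.15 (SE, edgeR adjusted p = 2.5e-10) in CtslΔTEC cells. Hspa4 was measured at 102, 79.1, 78.8 and 93.7 TPM in WT and 78.1, 86.5, 87.3, 89.3 and 95.7 TPM in CtslΔTEC mice before stimulation. Stimulated WT mice had 166 and 188 TPM and stimulated CtslΔTEC mice 190.1 and 174 TPM. Hspa4 changed by a log2 fold change of 0.91 ± 0.10 (SE, edgeR adjusted p = 8.3e-07) and a log2 fold change of 0.96 ± 0.09 (SE, edgeR adjusted p = 2.1e-07). For each of the 3, stimulated mice did not overlap with unstimulated mice. Hspa4l was the scarcest of them before stimulation, at 0.132 to 0.202 of the level of Hspa4, and stood at 0.310 to 0.544 of it in stimulated WT and 0.783 to 0.873 in stimulated CtslΔTEC mice.

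In the mitochondrial group 8 of 9 genes were higher and 1 lower in each genotype. Before stimulation Hspa9 was at 105, 99.2, 99.6 and 89.8 TPM in WT and 88.2, 100.5, 109, 108 and 97.6 TPM in CtslΔTEC mice. For Hspa9 the stimulated values were 322 and 314 TPM in WT and 339 and 315 TPM in CtslΔTEC mice. Hspa9, the HSP70 of the mitochondrial matrix, changed by a log2 fold change of 1.81 ± 0.09 (SE, edgeR adjusted p = 3.2e-10) in WT and a log2 fold change of 1.83 ± 0.09 (SE, edgeR adjusted p = 9.9e-11) in CtslΔTEC cells. Hspd1 stood at 122, 105, 107 and 103 TPM in unstimulated WT and 80.6, 90.5, 109, 112 and 97.9 TPM in unstimulated CtslΔTEC mice. Levels of Hspd1 in stimulated cells were 279.9 and 263 TPM in WT and 257 and 235 TPM in CtslΔTEC mice. Hspe1 was measured at 151, 133, 127 and 150.2 TPM in WT and 131, 125, 158, 141 and 148 TPM in CtslΔTEC mice before stimulation. In stimulated cells Hspe1 was at 339 and 295 TPM (WT) and 315 and 330.3 TPM (CtslΔTEC). These are the chamber HSP60 and its lid HSP10, whose genes share the promoter stretch shown above. Hspd1 changed by a log2 fold change of 1.59 ± 0.12 (SE, edgeR adjusted p = 2.4e-08) and a log2 fold change of 1.58 ± 0.11 (SE, edgeR adjusted p = 1.1e-08), and the lid Hspe1 by 1.29 ± 0.11 and 1.39 ± 0.11 (SE) in WT and CtslΔTEC cells. The ratio of Hspe1 to Hspd1 lay between 1.12 and 1.62 in the 13 libraries. Dnajc11, a protein linked to the cristae of mitochondria, stood at 32.6, 27.8, 32.2 and 30.6 TPM in unstimulated WT and 75.6 and 93.6 TPM in stimulated WT mice, a change of a log2 fold change of 1.49 ± 0.09 (SE, edgeR adjusted p = 2.7e-09). Dnajc15, a J protein of the import motor, changed by a log2 fold change of 1.06 ± 0.16 (SE, edgeR adjusted p = 2.8e-05) in WT. The gene that fell was Dnajc28, at 2.75, 2.91, 2.31 and 2.75 TPM before and 0.543 and 0.297 TPM after stimulation in WT mice, a log2 fold change of -2.50 ± 0.28 (SE, edgeR adjusted p = 1.4e-06).

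The endoplasmic reticulum (ER) chaperones did not move together. Before stimulation Hspa5 was at 166, 186, 152 and 303 TPM in WT and 332, 168, 313, 148 and 188 TPM in CtslΔTEC mice. After stimulation it was at 612 and 697 TPM in WT and 765 and 732 TPM in CtslΔTEC mice. Hspa5 encodes BiP, the HSP70 of the ER, and changed by a log2 fold change of 1.79 ± 0.20 (SE, edgeR adjusted p = 1.5e-06) in WT and a log2 fold change of 1.87 ± 0.19 (SE, edgeR adjusted p = 3.9e-07) in CtslΔTEC cells. Hsp90b1 stood at 155, 167, 127 and 128 TPM in unstimulated WT and 115, 158, 143, 145 and 164 TPM in unstimulated CtslΔTEC mice. Stimulated WT mice had 129 and 104 TPM and stimulated CtslΔTEC mice 111 and 112 TPM. Hsp90b1, the ER form of HSP90, did not pass the test, at a log2 fold change of -0.23 ± 0.17 (SE, edgeR adjusted p = 0.252) in WT and a log2 fold change of -0.26 ± 0.16 (SE, edgeR adjusted p = 0.169) in CtslΔTEC cells. Dnajc3, a J protein that also restrains the kinase PERK, stood at 58.03, 62.7, 62.3 and 48.01 TPM in unstimulated WT, 57.05, 77.5, 74.2, 75.1 and 75.2 TPM in unstimulated CtslΔTEC, 20.2 and 19.9 TPM in stimulated WT and 21.3 and 18.8 TPM in stimulated CtslΔTEC mice. Stimulated mice lay below unstimulated mice throughout, and the change was a log2 fold change of -1.41 ± 0.15 (SE, edgeR adjusted p = 8.1e-07) in WT and a log2 fold change of -1.69 ± 0.15 (SE, edgeR adjusted p = 8.0e-08) in CtslΔTEC cells. The 3 genes with an ER stress element in the window shown above thus rose, did not pass the test and fell. Hsp90b1 was negative under each of 19 alternatives in CtslΔTEC cells, at -0.41 to -0.16, and called lower under 6 of them, and in WT cells under 2 of 18. Dnajb11, a J partner of BiP, was higher at 0.57 ± 0.09 and 0.53 ± 0.08 (log2, SE) in WT and CtslΔTEC cells.

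Hspa5 and Dnajb9 differed by the date of the unstimulated libraries. Dnajb9, or ERdj4, stood at 20.6, 19.98, 13.3 and 72.8 TPM in WT mice and 82.5, 17.8, 83.6, 19.1 and 15.7 TPM in CtslΔTEC mice. The 3 libraries of the earlier date (WT mouse 4, CtslΔTEC mice 1 and 3) held 72.8 to 83.6 TPM and the 6 later ones 13.3 to 20.6 TPM. Hspa5 stood at 303 to 332 TPM in the same 3 and at 148 to 188 TPM in the other 6. These libraries also had the highest sums of 12 immediate-early genes among unstimulated cells, 1949 to 2955 TPM beside 727 to 947 TPM, and Hba-a1 was higher in them without overlap, as given above. The part of either in this was not tested. Of 18 other ER folding genes, Ddit3 was without overlap higher and Ern1 lower in the earlier libraries, and 16 overlapped. Outside the ER group, the scarce Hspa12a was also apart, at 0.551 to 1.43 TPM in the earlier and 0.0657 to 0.352 TPM in the later libraries. The share of all genes that were apart by date was not counted, so no trait of ER genes can be read from this. Without these 3 libraries the rise of Hspa5 after stimulation was 1.96 in WT and 2.14 in CtslΔTEC cells (log2), in a fit added once the data had been seen.

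**Figure D3:**
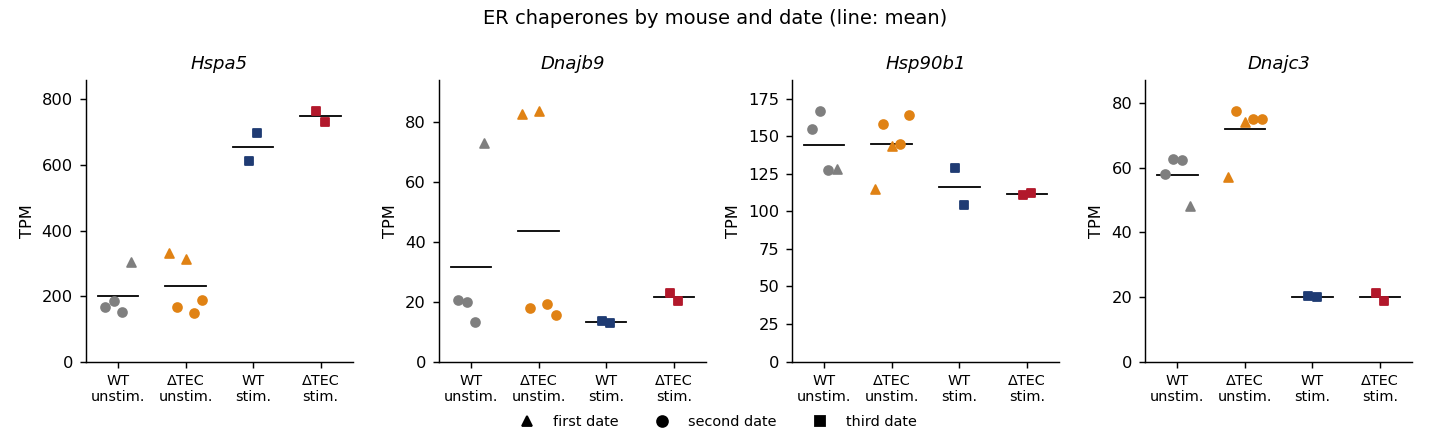
TPM of 4 ER chaperone genes in each library by group, with the mean as a line and the date of the library as the symbol. Hspa5 and Dnajb9 are higher in the 3 first-date libraries, at 303 to 332 and 72.8 to 83.6 TPM, than in the other unstimulated ones, and Dnajc3 is lowest after stimulation.

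J-domain proteins of the cytosol and nucleus went in both directions, as all genes did. In the DNAJA and DNAJB group 5 of 12 tested were higher and 5 lower in WT, and 4 were higher and 4 lower in CtslΔTEC cells. That is 41.7% each way in WT and 33.3% each way in CtslΔTEC cells. Of all genes tested, 32.9% were higher and 34.8% lower in WT, and 32.9% and 38.2% in CtslΔTEC cells. Dnaja1 was measured at 412, 286, 307 and 307 TPM in WT and 225, 193, 317, 315 and 285 TPM in CtslΔTEC mice before stimulation. For Dnaja1 the stimulated values were 172 and 153 TPM in WT and 199 and 200.1 TPM in CtslΔTEC mice. Before stimulation Dnajb1 was at 69.7, 54.8, 48.6 and 62.9 TPM in WT and 68.1, 39.8, 83.5, 52.6 and 44.2 TPM in CtslΔTEC mice. Levels of Dnajb1 in stimulated cells were 34.2 and 36.4 TPM in WT and 37.1 and 38.9 TPM in CtslΔTEC mice. These are the main HSP70 partners of classes A and B. Dnaja1 changed by a log2 fold change of -0.77 ± 0.18 (SE, edgeR adjusted p = 0.00179) in WT and a log2 fold change of -0.22 ± 0.17 (SE, edgeR adjusted p = 0.264) in CtslΔTEC cells, where it did not pass the test, and the difference between the genotypes did not pass either, at a log2 fold change of 0.55 ± 0.25 (SE, edgeR adjusted p = 0.281). Dnajb1 changed by a log2 fold change of -0.63 ± 0.22 (SE, edgeR adjusted p = 0.0231) and a log2 fold change of -0.43 ± 0.21 (SE, edgeR adjusted p = 0.0878). Its fall in WT did not pass without stimulated mouse 6 (-0.61, adjusted p = 0.120, edgeR), and that in CtslΔTEC cells was lost without any one of mice 1, 3, 6 and 7 (-0.49 to -0.24) and, in a fit added once the data had been seen, without the 3 earliest libraries (-0.07). Other choices of processing ended it too, and in all it was kept under 9 of 19 alternatives. Dnaja2, the other class A partner, rose, and its level was 0.242 to 0.474 of that of Dnaja1 in unstimulated and 0.834 to 1.04 of it in stimulated libraries. Dnajb4 fell from 10.5, 8.08, 6.91 and 8.93 TPM to 4.06 and 2.31 TPM in WT mice, a log2 fold change of -1.46 ± 0.21 (SE, edgeR adjusted p = 1.9e-05). Dnajb5 is described with the differences between genotypes.

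In the DNAJC group, J proteins with varied partners, 6 of 16 tested were higher and 5 lower in WT, and 7 were higher and 5 lower in CtslΔTEC cells. The shares were 37.5% and 31.2% in WT, beside 32.9% and 34.8% of all genes. In CtslΔTEC cells they were 43.8% and 31.2%, beside 32.9% and 38.2%. Dnajc27, a small GTPase with a J domain, led the rises at a log2 fold change of 1.73 ± 0.11 (SE, edgeR adjusted p = 4.2e-09) in WT and a log2 fold change of 2.14 ± 0.10 (SE, edgeR adjusted p = 1.3e-10) in CtslΔTEC cells. Dnajc2, a J protein at the ribosome, changed by a log2 fold change of 1.10 ± 0.08 (SE, edgeR adjusted p = 1.4e-08) and a log2 fold change of 1.16 ± 0.08 (SE, edgeR adjusted p = 3.3e-09). Dnajc6, or auxilin, which helps strip the clathrin coat from vesicles, fell most, at a log2 fold change of -2.77 ± 0.47 (SE, edgeR adjusted p = 1.0e-04) in WT and a log2 fold change of -3.88 ± 0.47 (SE, edgeR adjusted p = 2.8e-06) in CtslΔTEC cells. Its level was 3.08, 3.91, 3.98 and 1.46 TPM in unstimulated WT, 4.88, 10.1, 9.57, 7.71 and 7.16 TPM in unstimulated CtslΔTEC, 0.121 and 0.607 TPM in stimulated WT and 0.154 and 0.401 TPM in stimulated CtslΔTEC mice.

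The BAG proteins release clients from HSP70 and tie it to other machines. Bag1 stood at 80.2, 70.7, 76.8 and 86.9 TPM in unstimulated WT and 75.1, 65.8, 79.98, 72.95 and 73.96 TPM in unstimulated CtslΔTEC mice. In stimulated cells Bag1 was at 102 and 82.3 TPM (WT) and 81.9 and 82.5 TPM (CtslΔTEC). Bag5 was measured at 34.9, 26.8, 33.5 and 36.6 TPM in WT and 34.4, 25.9, 37.4, 34.6 and 30.1 TPM in CtslΔTEC mice before stimulation. After stimulation it was at 75.1 and 83.5 TPM in WT and 83.5 and 88.5 TPM in CtslΔTEC mice. Before stimulation Bag6 was at 166, 137, 187 and 158 TPM in WT and 200, 141, 166, 164 and 165 TPM in CtslΔTEC mice. Stimulated WT mice had 153 and 169 TPM and stimulated CtslΔTEC mice 152 and 143 TPM. Bag5 rose at a log2 fold change of 1.27 ± 0.10 (SE, edgeR adjusted p = 4.6e-08) in WT and a log2 fold change of 1.51 ± 0.10 (SE, edgeR adjusted p = 2.6e-09) in CtslΔTEC cells, and the stimulated mice were all above the unstimulated ones. Bag6, a sorting factor for membrane proteins, overlapped between unstimulated and stimulated mice of each genotype. Bag2 stood at 3.34, 1.99, 1.04 and 0.903 TPM in unstimulated WT and 1.099, 1.37, 1.12, 1.35 and 0.736 TPM in unstimulated CtslΔTEC mice. For Bag2 the stimulated values were 3.84 and 3.17 TPM in WT and 1.99 and 2.46 TPM in CtslΔTEC mice. Bag3 was measured at 1.74, 1.16, 1.69 and 1.57 TPM in WT and 1.01, 1.11, 0.878, 0.804 and 0.9802 TPM in CtslΔTEC mice before stimulation. Levels of Bag3 in stimulated cells were 0.9699 and 0.529 TPM in WT and 0.887 and 0.392 TPM in CtslΔTEC mice. Before stimulation Bag4 was at 8.52, 8.84, 8.19 and 7.17 TPM in WT and 8.66, 8.48, 10.1, 9.398 and 9.098 TPM in CtslΔTEC mice. In stimulated cells Bag4 was at 8.84 and 7.66 TPM (WT) and 14.1 and 10.2 TPM (CtslΔTEC). Bag2 and Bag3 were low throughout, and Bag3, the stress-inducible BAG protein, fell in WT cells at a log2 fold change of -1.02 ± 0.36 (SE, edgeR adjusted p = 0.0233). Bag1 was higher at 0.33 ± 0.12 and 0.32 ± 0.11 and Bag2 at 0.98 ± 0.36 and 0.99 ± 0.36 (log2, SE) in WT and CtslΔTEC cells. Each of these calls was lost without 1 stimulated mouse. In WT, Bag1 was at 0.08 and Bag2 at 0.75 without mouse 5, and Bag3 at -0.49 without mouse 6. In CtslΔTEC cells, Bag1 was at 0.28 and Bag2 at 0.72 without mouse 7, and Bag3, not called with both mice, was at -1.15 without mouse 6. Over 19 alternatives there, Bag1 ran from 0.16 to 0.40 and kept its call in 16, and Bag2 kept its call in 18.

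Hsf1 itself rose. Hsf1 stood at 47.97, 51.0, 54.3 and 54.7 TPM in unstimulated WT and 65.0, 55.98, 54.0, 50.8 and 54.6 TPM in unstimulated CtslΔTEC mice. After stimulation it was at 93.2 and 124 TPM in WT and 132 and 138 TPM in CtslΔTEC mice. Its change was a log2 fold change of 0.96 ± 0.11 (SE, edgeR adjusted p = 1.5e-06) in WT and a log2 fold change of 1.07 ± 0.10 (SE, edgeR adjusted p = 2.0e-07) in CtslΔTEC cells, and no stimulated mouse overlapped with an unstimulated one. Of the 15 tested members with a heat-shock pair, 8 were higher and 3 lower in WT, and the same 8 were higher and 2 lower in CtslΔTEC cells. The share that was higher, 53.3%, is near the 54.1% and 55.4% of all members tested. Those include these 15 and members whose promoter was not searched, such as Hspa8 and both cytosolic HSP90 genes. The 8 were Hspd1, Hspe1, Hsph1, Dnajb6, Dnajc27, Cct2, Cct5 and Cct6a. Dnajb4 was lower in both genotypes, Bag3 and Dnaja1 were lower in WT and Dnajc10 in CtslΔTEC cells at this threshold. The Hspa1 pair was at or near 0 in stimulated cells and did not pass, nor did Dnaja4, though Hspa1b in WT cells, at a log2 fold change of -4.23 ± 2.18 (SE, edgeR adjusted p = 0.105), was called lower under 9 of 17 alternatives. Hspa1a in WT cells, at a log2 fold change of -3.33 ± 1.89 (SE, edgeR adjusted p = 0.139), stayed not called under 13 of 17, at -3.75 to -0.29 over all 17.

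Partners of these chaperones, taken as lists from general knowledge, were counted in the same tests, to be read against the 67.7% of all genes called in WT and 71.2% in CtslΔTEC cells, with 32.9% of all genes higher in each. Of 18 co-chaperones of HSP90 and HSP70, 12 were higher and 2 lower in WT, and 13 were higher and 2 lower in CtslΔTEC cells, among them Stip1 (1.50 ± 0.10 in WT, log2, SE) and Ppid (1.68 ± 0.11), which link HSP70 to HSP90 or bind HSP90. Of 11 mitochondrial partners and proteases, 7 and 8 were higher and 1 and 2 lower, with Clpp at 1.64 ± 0.14 and Timm44 at 1.17 ± 0.09 in WT. Of 18 other ER folding genes, 12 were higher in each genotype and 4 and 5 lower, and Edem1, which takes part in the disposal of misfolded ER proteins, fell by 1.19 ± 0.10 in WT. Of 9 prefoldin subunits and TRiC cofactors, which hand clients to the chamber or tune it, 5 and 4 were higher and 1 was lower, the lower one being Pdcl. Of 8 actin and tubulin genes, the main clients of TRiC, 4 and 5 were higher and 3 and 1 lower, with Tuba1c at 2.54 ± 0.12 and Tubb5 at -0.70 ± 0.10 in WT. Of 12 other heat-shock factors and small heat-shock proteins, 6 could be tested, of which 1 and 2 were higher and 3 and 4 lower.

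CtslΔTEC mice were next compared with WT mice before stimulation. Of the 73 members tested, 2 were higher and 8 lower in CtslΔTEC cells at an adjusted p under 0.1 (edgeR), or 13.7%, and 14.8% of all genes were called (6.42% higher and 8.36% lower). The count in that fit, which leaves out the date of the libraries, is near the background. With date as a factor 6 were higher and 13 lower, or 26.0% beside 20.6% of all genes. The split depends on the scaling, with 6 higher and 6 lower by library totals and 4 and 7 by upper-quartile factors. In the fit without date the median log2 fold change was -0.04 beside 0.01 over all genes. In these bulk samples fewer cells of a type and less RNA per cell cannot be told apart. The sum of the double-positive and CD8-lineage markers differed between the same groups without overlap, as given above, and its part in the results was not tested. When Y-linked expression (4 genes) was entered as a covariate, 0 of 73 members passed in edgeR, with 6 at an unadjusted p under 0.05, where 24 were under it without the covariate, and the share of all genes called fell to 3.26%. All CtslΔTEC mice but only WT mouse 3 of the WT mice expressed these Y-linked genes. The covariate thus nearly coincides with genotype, and this fit has little power to separate them. DESeq2, run without the covariate, called 14 of 78 members, or 17.9%, and 10.5% of the 21737 genes with any count. That set is wider than the 13152 genes tested in edgeR, so the shares are not alike. Of the 10 members called without the covariate 9 kept their sign with it, Hsph1 at -0.63, Bag3 at -0.84, Cct6a at -0.34, Dnajc27 at 0.33, Dnajc6 at 0.81, Hspa8 at -0.30 and Cct5 at -0.14 among them, and Hspa1a reversed.

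Hsph1 and Hspa8 had the smallest adjusted p of the lower members. Hsph1 was at 55.5, 39.3, 43.2 and 38.01 TPM in WT and 23.8, 24.9, 33.5, 31.6 and 29.7 TPM in CtslΔTEC mice, so the genotypes did not overlap, and the difference was a log2 fold change of -0.72 ± 0.13 (SE, edgeR adjusted p = 0.00346). Hspa8 overlapped in 1 mouse of each group and differed by a log2 fold change of -0.63 ± 0.12 (SE, edgeR adjusted p = 0.00664). Within the 6 libraries of the later date the differences were -0.74 for Hsph1 (adjusted p = 0.00918, edgeR) and -0.71 for Hspa8 (adjusted p = 0.0122), and the earlier date holds 1 WT mouse only. Bag3 did not overlap between the genotypes, at a log2 fold change of -0.72 ± 0.18 (SE, edgeR adjusted p = 0.0219), and was at -0.67 within the later date, where it did not pass.

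Of the TRiC subunits, Cct6a and Cct5 passed. Cct6a did not overlap between WT and CtslΔTEC mice, at 114 to 120 TPM beside 87.1 to 105 TPM, with a log2 fold change of -0.34 ± 0.08 (SE, edgeR adjusted p = 0.0146). Cct5 did not overlap either, at 223 to 238 TPM beside 193 to 207 TPM, with a log2 fold change of -0.24 ± 0.06 (SE, edgeR adjusted p = 0.0288). The other 6 main subunits had negative values of -0.18 to -0.06 that did not pass. Within the later date Cct6a was at -0.33 (adjusted p = 0.0156, edgeR) and Cct5 at -0.19 (adjusted p = 0.118). The partner lists were counted only in the fit without date or the Y-linked covariate. There 8.36% of all genes were lower and 6.42% higher. Of the 8 actin and tubulin genes, 6 were lower in CtslΔTEC cells and none higher, with Actg1 at -0.49 ± 0.06 and Tuba1a at -0.65 ± 0.09 (log2, SE). Of the 18 co-chaperones 2 were lower, Ahsa1 at -0.26 ± 0.06 and St13 at -0.22 ± 0.07, and of the 9 prefoldin and cofactor genes and 11 mitochondrial partners none passed in edgeR, with smallest adjusted p of 0.241 and 0.343. Of the 18 other ER folding genes 2 were higher and 4 lower, led by Atf6, a sensor of ER stress, at -1.18 ± 0.11.

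Higher in CtslΔTEC cells were Dnajc6 and Dnajc27. Dnajc6 differed by a log2 fold change of 1.20 ± 0.25 (SE, edgeR adjusted p = 0.00893), with the lowest CtslΔTEC mouse at 4.88 TPM and the highest WT mouse at 3.98 TPM. Dnajc27 was at 5.22, 4.99, 5.08 and 4.89 TPM in WT and 7.199, 6.31, 8.07, 5.92 and 5.902 TPM in CtslΔTEC mice, without overlap, and differed by a log2 fold change of 0.34 ± 0.08 (SE, edgeR adjusted p = 0.0199). Within the later date these were 1.09 and 0.25, both past the threshold.

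The calls of the other lower members depend on single mice and on the processing. Hspa1a differed by a log2 fold change of -4.86 ± 1.47 (SE, edgeR adjusted p = 0.0574), but 1089 of its counts in WT mice came from mouse 1 and the other 3 had 64, 1 and 32. Without WT mouse 1 it was at -1.78 (adjusted p = 0.448, edgeR), and it was also lost without CtslΔTEC mouse 2, 4 or 5 at -4.56 to -4.54. Hspa1b, with 3200 counts in the same mouse, did not pass, at a log2 fold change of -3.14 ± 1.38 (SE, edgeR adjusted p = 0.187), and was called without CtslΔTEC mouse 3 at -4.99. Dnaja4 differed by a log2 fold change of -0.55 ± 0.18 (SE, edgeR adjusted p = 0.0749) and was lost when WT mouse 1 or 3 or CtslΔTEC mouse 2, 3, 4 or 5 was left out, at -0.58 to -0.37, and in all was kept under 10 of 23 alternatives. Dnajb5 differed by a log2 fold change of -0.24 ± 0.08 (SE, edgeR adjusted p = 0.0816) and was lost without WT mouse 2, 3 or 4 or CtslΔTEC mouse 2, 3 or 4, at -0.24 to -0.19, and in all was kept under 7 of 23, other scalings and filters among those that ended it.

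**Figure D4:**
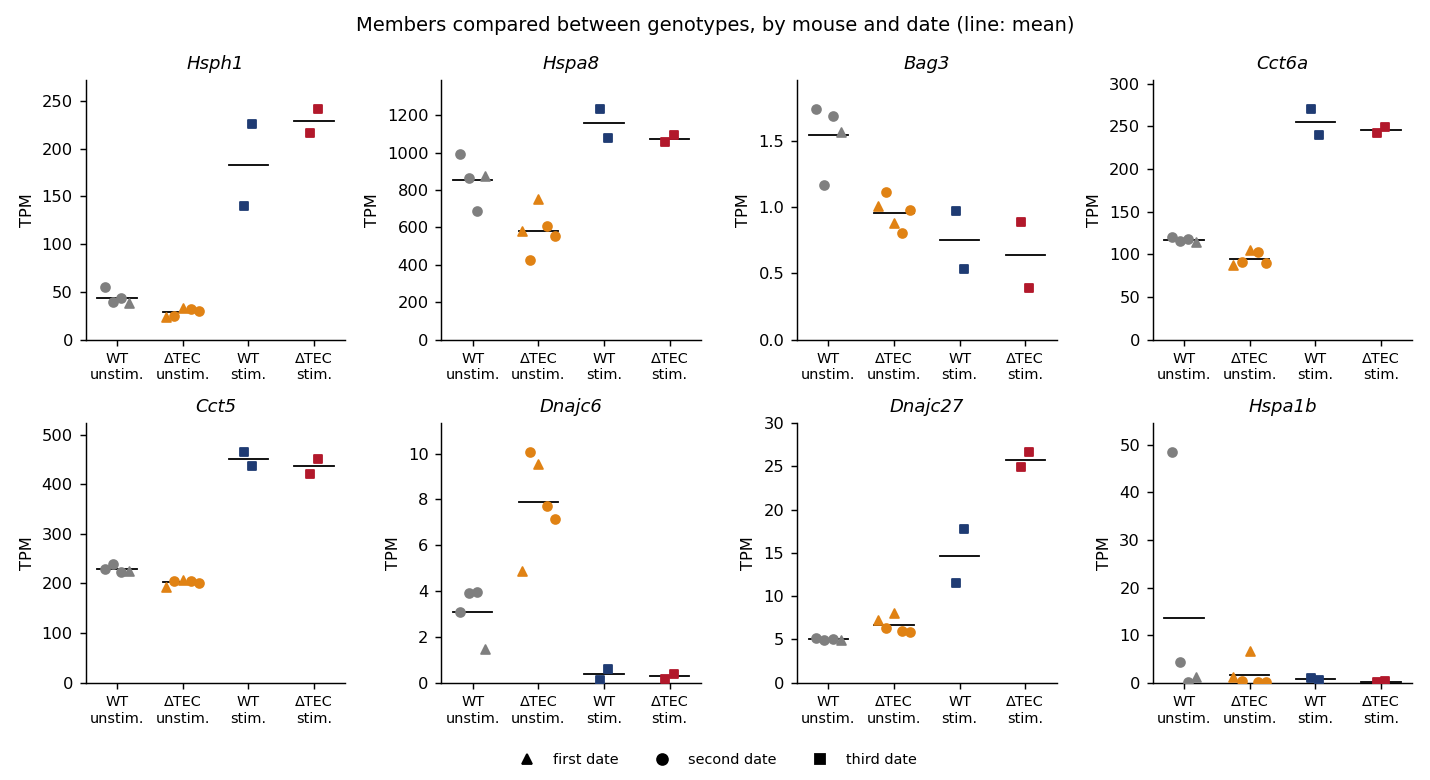
TPM of 8 members in each library by group, with the mean as a line and the date of the library as the symbol. Before stimulation Hsph1, Bag3, Cct6a and Cct5 are lower and Dnajc6 and Dnajc27 higher in CtslΔTEC mice without overlap, Hspa8 overlaps, and Hspa1b is high in WT mouse 1.

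After stimulation 4 of 74 members were higher and 2 lower in CtslΔTEC than in WT cells, or 8.11%, and 13.3% of all genes were called (2.77% higher and 10.6% lower). The sums of the activation markers (7270 and 9890 TPM in WT, 10500 and 10800 TPM in CtslΔTEC mice) and of the double-positive and CD8-lineage markers (28.4 and 32.4 TPM, 59.3 and 63.2 TPM) were also apart between these groups, and their part in the results was not tested. Single activation markers did not all follow their sum. Nr4a1, its largest part, was at 2710 and 4410 TPM in WT and 4760 and 5010 TPM in CtslΔTEC mice. Il2 went the other way, at 71.1 and 73 TPM in WT and 4.18 and 7.79 TPM in CtslΔTEC mice. So did Irf4, at 588 and 679 TPM in WT and 485 and 485 TPM in CtslΔTEC mice. Hspa4l was higher at a log2 fold change of 0.99 ± 0.19 (SE, edgeR adjusted p = 0.00494) and Dnajc27 at a log2 fold change of 0.74 ± 0.13 (SE, edgeR adjusted p = 0.00326). Dnajc27 stood at 11.6 and 17.8 TPM in WT and 24.9 and 26.7 TPM in CtslΔTEC mice, so the 2 mice of each group were apart. Dnajc21, a J protein of ribosome assembly, at 44.7 and 44.5 and 57.96 and 58.5 TPM, differed by a log2 fold change of 0.41 ± 0.12 (SE, edgeR adjusted p = 0.0455). Dnajb5 was higher at a log2 fold change of 0.40 ± 0.12 (SE, edgeR adjusted p = 0.0522). Dnajc14 was lower at a log2 fold change of -0.32 ± 0.10 (SE, edgeR adjusted p = 0.0601) and Dnajc12 at a log2 fold change of -1.19 ± 0.28 (SE, edgeR adjusted p = 0.0165). None of the 9 tested TRiC genes passed here, with a median of 0.01 and values of -0.11 to 0.27 and none at an unadjusted p under 0.05 in edgeR. Of the 18 other ER folding genes 5 were lower and 0 higher, with Atf6 at -1.22 ± 0.17 and Herpud1 at -0.73 ± 0.11 (log2, SE). Herpud1 was among the higher ones before stimulation, at 0.21 ± 0.07. Of the 8 actin and tubulin genes 2 were lower, and of the 11 mitochondrial partners 1 was. None of the 18 co-chaperones and 9 prefoldin and cofactor genes passed in edgeR, with smallest adjusted p of 0.241 and 0.352. With 2 mice a group, the calls of Dnajc21, Dnajb5, Dnajc14 and Dnajc12 depend on single mice and on the processing. Dnajc21 was lost without any one of the 4 (0.34 to 0.48). Dnajb5 (0.29 to 0.45) and Dnajc14 (-0.37 to -0.22) were lost without WT mouse 5 or CtslΔTEC mouse 6 or 7, and Dnajc12 without CtslΔTEC mouse 7 (-1.08). Over 16 alternatives, those included, Dnajc14 kept its call in 7, Dnajb5 in 8, Dnajc21 in 10 and Dnajc12 in 13. The count of 6 was then 3 without CtslΔTEC mouse 6, 2 without CtslΔTEC mouse 7, 3 without WT mouse 5 and 5 without WT mouse 6.

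The difference between the genotypes in their change with stimulation was tested as an interaction, which uses the same libraries as the comparisons above. Of 74 members 3 had a higher and 1 a lower change in CtslΔTEC cells, or 5.41%, and 6.01% of all genes were called (1.13% higher and 4.88% lower). Hspa4l (chr3:40744495-40796103, GRCm38) rose more in CtslΔTEC cells, by a log2 fold change of 1.18 ± 0.23 (SE, edgeR adjusted p = 0.0150). Before stimulation its genotypes overlapped, at 13.6 to 18.4 TPM in WT and 11.4 to 17.5 TPM in CtslΔTEC mice, and after it they were apart, at 51.4 and 102 TPM beside 166 and 137 TPM. WT mouse 5, the lowest here, was also the lowest in the sum of activation markers, whose part in this difference and that of Hsph1 was not tested. Il2 and Irf4 did not follow that sum, as given above. Hsph1 (chr5:149614287-149636376) differed by a log2 fold change of 1.03 ± 0.24 (SE, edgeR adjusted p = 0.0310), with the lower CtslΔTEC level before stimulation and overlapping levels after it, at 140 and 226 TPM in WT and 217 and 242 TPM in CtslΔTEC mice. Dnajb5 (chr4:42949814-42959425) differed by a log2 fold change of 0.63 ± 0.14 (SE, edgeR adjusted p = 0.0283), from 16.6, 18.2, 16.3 and 17.6 TPM in WT and 18.2, 12.3, 13.9, 14.6 and 15.7 TPM in CtslΔTEC mice to 24.6 and 27.97 and 32.9 and 34.2 TPM.

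Dnajc12 (chr10:63382443-63410576) had the opposite sign, at a log2 fold change of -1.44 ± 0.33 (SE, edgeR adjusted p = 0.0318). It was low, at 2.73, 1.74, 2.24 and 1.76 TPM in unstimulated WT, 2.60, 3.25, 2.07, 2.96 and 2.58 TPM in unstimulated CtslΔTEC, 2.098 and 2.06 TPM in stimulated WT and 1.66 and 0.821 TPM in stimulated CtslΔTEC mice. Its counts rose in WT cells at a log2 fold change of 0.69 ± 0.23 (SE, edgeR adjusted p = 0.0152) while its TPM, which takes account of the length of the transcripts, did not, at -0.0069 on the log2 scale with 1 TPM added. Without WT mouse 5, the shallowest library, 1 of the 4 interactions passed, that of Hspa4l, and Hsph1 was at 0.81, Dnajb5 at 0.53 and Dnajc12 at -1.34. Dnajb5 was also lost without CtslΔTEC mouse 6 (0.57) and Dnajc12 without CtslΔTEC mouse 7 (-1.32). Both were lost as well with an offset for transcript length (0.59 and -1.13) and with limma on log2(TPM + 1) (0.55 and -0.73). Hspa4l passed under each of 24 alternatives, at 0.87 to 1.56. The 8 main TRiC subunits and both cytosolic HSP90 genes had interaction values of -0.003 to 0.23 that did not pass.

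**Figure D5:**
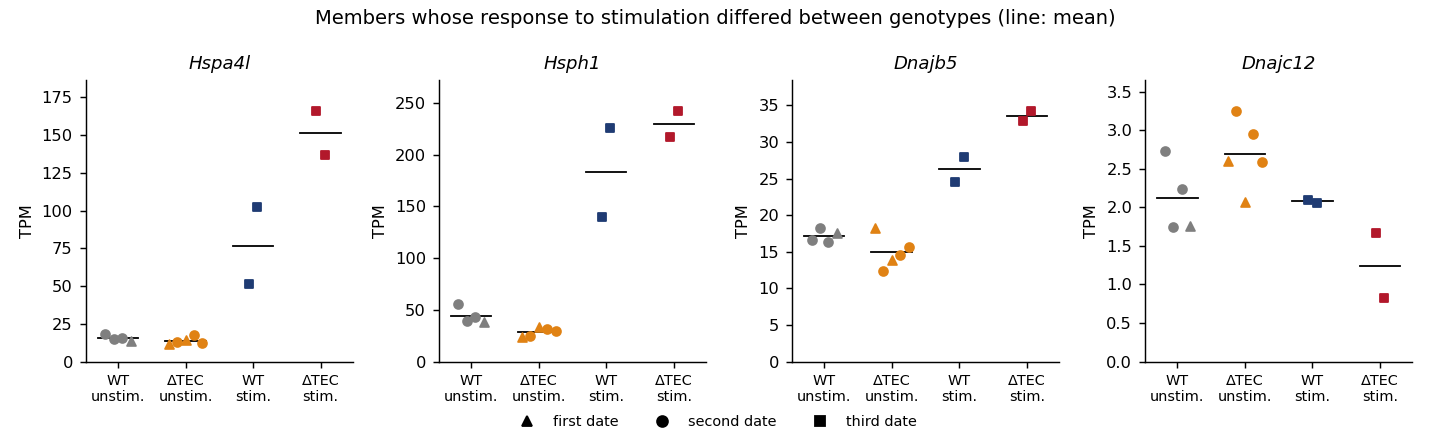
TPM of Hspa4l, Hsph1, Dnajb5 and Dnajc12 in each library by group, with the mean as a line and the date as the symbol. After stimulation Hspa4l is at 51.4 and 102 TPM in WT and 166 and 137 TPM in CtslΔTEC mice, while Hsph1 overlaps between the genotypes.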

How the data were processed

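RNA sequencing of 13 libraries was analysed, each from 1 mouse, with groups from the sample labels. Per the labels and methods the authors ran kallisto 0.48 on Ensembl release 106 transcripts, and each deposited file gives estimated counts and TPM per transcript. The labels describe polyadenylated RNA, whereas the methods describe rRNA depletion. The authors' effective lengths were used in 1 alternative. Of 117497 transcripts, 116397 were paired with a gene of GENCODE M21 (GRCm38). The others took at most 0.461% of counts. Estimated counts were summed to genes and rounded.

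Members were taken by symbol with a protein-coding type in GENCODE or RefSeq, the latter adding Cct6a. The members and lists were chosen with earlier results of these data known. edgeR 4.0.16 (R 4.3.3) was used with TMM, filterByExpr, the quasi-likelihood test and Benjamini-Hochberg adjustment over all genes tested, with a threshold of 0.1, on 9 unstimulated libraries or in a 4-group model of 13. SE was the log2 fold change over the square root of F. Totals were 8085463 to 39127833 counts per library, and a count of 0 allows up to 3. Named members were a list of 32 and the 4 with the largest change per direction and comparison among other called members whose mean log2 CPM was 1 or more. In simulated data of the same design, 2-fold changes of 200 genes were tested first. Alternatives included DESeq2 1.42.0, limma 3.58.1 on log2(TPM + 1), other scalings, filters, dates, covariates and each mouse left out. Promoters came from RefSeq. One marker is not reported here. Figures were drawn with matplotlib.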

Additional observations from a re-analysis of the deposited data

Results flagged for a closer look

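Among the 44 named members tested in unstimulated cells, 88 sets of 4 or 5 mice were examined for a mouse far from the rest on the log2(TPM + 1) scale, where chance gives about 1 in 20 and 3 were found. Cct8 was at 156 TPM in WT mouse 3, below 169.7 to 171 TPM in the other WT mice. Dnajc3 was at 57.1 TPM in CtslΔTEC mouse 1, below 74.2 to 77.5 TPM in the others. Hspa1a was at 0.759 TPM in CtslΔTEC mouse 3, above 0 to 0.0743 TPM in the others.

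The change with stimulation differed between the genotypes by the interaction test for 4 members, with a log2 difference (CtslΔTEC minus WT) of 1.18 for Hspa4l, 1.03 for Hsph1, 0.63 for Dnajb5 and -1.44 for Dnajc12, with edgeR adjusted p of 0.0150, 0.0310, 0.0283 and 0.0318. No cause of these was tested.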

How the results depend on the processing

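Of the 44 members chosen by the rule for named genes, each one called after stimulation kept its direction under each alternative except Dnajc12 in WT cells, which reversed to -0.0069 (log2) with limma on log2(TPM + 1), a fit that takes account of transcript length. Hspa1a reversed in the unstimulated comparison, to 1.46 (adjusted p = 0.948, edgeR), with the Y-linked covariate. Of 37 named members called in WT and 36 in CtslΔTEC cells, 31 and 31 kept their call under every alternative, and of 10 named members called in unstimulated cells 0 did, all 10 being lost with the Y-linked covariate, where 9 kept their sign. Over 23 settings, that one included, Hsph1 stayed at -0.79 to -0.60 and Dnajc6 at 0.81 to 1.33, while Hspa8 ran from -0.72 to -0.30. In the unstimulated comparison the count of 10 members was 19 with date as a factor, 0 with the Y-linked covariate and 4 with mouse number as a replicate block, and the causes were not tested. The deviations of same-numbered mice correlated at -0.157, 0.352, -0.098 and -0.142. Only the mice numbered 2, at 0.352, share a date, so these values cannot tell whether the numbers pair the mice. With library totals the split was 6 higher and 6 lower, and with upper-quartile factors 4 and 7, where the main split was 2 and 8. Library totals put the median of all genes in stimulated CtslΔTEC cells at -0.208 in place of -0.064. In the stimulated comparison upper-quartile factors gave 4 higher and 1 lower in place of 4 and 2. The count of 4 interactions was 2 with an offset for transcript length and 2 with limma on log2(TPM + 1).

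With 1 mouse left out, the count ranged from 7 to 15 for unstimulated genotypes, 2 to 5 for stimulated genotypes, 48 to 57 for stimulation in WT, 47 to 57 for stimulation in CtslΔTEC cells and 1 to 5 for the interaction. Where that left a group of 1 mouse, the fit assumed that mouse to vary like those of the other groups. The depth of stimulated WT mouse 5, 8085463 counts, limits what the stimulated comparisons can show for low members such as Bag3 and Dnajc12.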

Other observations

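The make-up of the chaperone transcripts differed between unstimulated and stimulated cells by role. TRiC genes took on average 21% of member TPM in unstimulated WT and 21.1% in unstimulated CtslΔTEC mice, and 27% and 27.1% after stimulation. HSP90 of the cytosol went from 16.3% and 15.8% to 20.5% and 19.3%, and HSP110 from 2.37% and 2.27% to 4.06% and 5.07%. The DNAJC group took 12% and 13.3% before and 7.07% and 7.5% after, and the DNAJA and DNAJB group 10.7% and 10.7% before and 5.29% and 5.83% after. The ER group kept a like share, 9.36% and 11.1% before and 9.09% and 9.71% after. These are shares of a sum, so each depends on the others, and no test was made.

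The ratio of Hspa8 to its exchange factor Hsph1 was 15.9 to 24.4 in the 9 unstimulated libraries and 4.52 to 8.83 in the 4 stimulated ones. The ratio of Hspa5 to Hsp90b1 was 1.02 to 2.90 before and 4.75 to 6.91 after stimulation.

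Transcripts annotated as retaining an intron took different shares of the counts of Hspa8 in different libraries. The share was 4.35% to 9.05% in the 3 unstimulated libraries of the earlier date, 3.69% in WT mouse 1, 2.30% in WT mouse 2 and 0.867% to 1.04% in the other 4 unstimulated mice, and 1.98% to 4.01% in stimulated mice. For Hspa5 it was 3.16% to 5.29% in the earlier libraries, 0.305% to 0.644% in the 6 later ones and 0.798% to 2.45% in stimulated mice. For Hsph1 it was 10.1% to 15.3% in all 13.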
